A study of Drosophila melanogaster with 12 samples.

Results

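The GATA factor genes srp and GATAe, the GATA cofactor gene ush and the homeobox gene Ptx1 were followed in ATAC-seq counts of adult female Drosophila melanogaster. ATAC-seq uses the Tn5 transposase to cut open DNA, so that reads pile up where chromatin is accessible. Members were all deposited regions that overlap 1 of these 4 genes or lie within 1000 bp of its span in Release 6 of the fly genome. The rule found 16 of 6353 regions, 7 in the fat body table and 9 in the gut table.

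Switched flies had the genotype S106 with UAS-foxo, ate 200 µM RU486 for 21 days (3 weeks) and then ate control food for 7 days (1 week). Control flies had the same S106 and UAS-foxo genotype and were not given RU486. S106 is a drug-inducible driver of the fat body and gut, and RU486 switches on foxo, the forkhead transcription factor of insulin signalling, wherever S106 is active. Each of the 4 groups (switched and control, labelled fat body and labelled gut) had 3 libraries of adult females that had been mated for 48 h. The labels give neither the age in days at dissection nor the number of animals per library. No group ate RU486 without UAS-foxo, so the drug and the induction cannot be told apart, and the p-values measure only the spread between these libraries, which may be technical. In bulk tissue, fewer cells of a type and less accessible chromatin per cell cannot be told apart.

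GATA factors are zinc-finger proteins that bind GATA motifs and set the identity of endodermal and mesodermal tissues. Serpent, the product of srp, specifies fat body and blood cells in the fly embryo and acts on yolk protein and immune genes in fat body. GATAe acts in the midgut, where it is needed for the differentiation and upkeep of the intestinal epithelium. U-shaped, encoded by ush, is the fly counterpart of the vertebrate Friend of GATA proteins, which bind GATA factors and modify their action on target genes. Ptx1 encodes a homeodomain protein of the Pitx family expressed in part of the midgut.

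Depth on chromosome arms limited what could be seen. Total counts were 811020 to 977245 in switched and 1053117 to 1186153 in control libraries labelled fat body, and 99191 to 709659 in switched and 111244 to 654180 in control libraries labelled gut. Mitochondrial DNA held 69.2% to 88.6% of them. Both gut libraries numbered 1 were shallow, with 15803 counts on chromosome arms in the switched and 23730 in the control library, against 67141 to 132196 in the other 4. A count of 0 there allows up to 17.4 CPM (3 counts) in the switched and 17.3 CPM in the control library, against 4.66 to 8.22 CPM in the other 4 gut libraries and 2.33 to 3.82 CPM in the libraries labelled fat body. These limits cover counting error only. CPM is the normalised read count relative to library size, scaled with TMM factors, which correct for differences in composition between libraries.

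The markers did not settle the tissue labels. Of 8 gut markers, 3 (alphaTry, Jon99Cii and Jon99Ciii) had a region in the fat body table and 0 in the gut table. Of 8 fat body markers, 2 (Lsp1beta and Lsp2) had a region in the fat body table, against 4 (Lsp1beta, Yp1, Yp3 and apolpp) in the gut table. For scale, 9.04% of all protein-coding genes on chromosome arms had a region in the fat body table and 16.3% in the gut table. With so few genes per list, these counts do not tell which tissue a table holds. Tables and libraries are therefore named only by their labels. Of the other lists, 1 of 5 haemocyte, 1 of 4 muscle and 1 of 3 ovary markers had a region in the fat body table, against 2 of 5, 2 of 4 and 2 of 3 in the gut table. Both oenocyte markers had one in the gut table alone, and neuronal and Malpighian tubule markers had 0 in either.

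The genes differed in which table held their regions. All 4 genes had a region in the fat body table: 1 at srp, 2 at GATAe, 3 at ush and 1 at Ptx1. The gut table held regions of 2 of the 4, with 4 at srp and 5 at ush. GATAe and Ptx1, both midgut genes, had 0 regions in the gut table. For scale, a region was found at 26.1% (fat body table) and 33.7% (gut table) of the 1976 protein-coding genes of at least 10000 bp, and all 4 members exceed that length. Each table was counted over its own regions, so a gene without a region has no count and its accessibility there is not known. The genome build of the fat body table was assumed. Of its regions on chromosome arms, 14% had their midpoint within 500 bp of a gene end, against 12.5% to 13% after shifts. Whether its regions belong to the genes named here therefore rests on that assumption. In the text, F marks a region of the fat body table and G one of the gut table, numbered by coordinate within a gene.

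The srp and GATAe genes are neighbours on chromosome 3R, 5019 bp apart, and another GATA gene, pnr, follows 6945 bp beyond GATAe. srp spans 15986152 to 16004085, and GATAe 16009105 to 16019133. The only srp region of the fat body table, srp-F1 (3R, 16005008 to 16005111), lay outside srp, 923 bp beyond its upper end and 3993 bp before GATAe, inside the long noncoding RNA gene lncRNA:CR42839. The 4 gut regions of srp lay in its lower part. The first, srp-G1 (3R, 15986028 to 15986186), crossed the lower end of the gene. srp-G2 (15987526 to 15987646), srp-G3 (15993185 to 15993309) and srp-G4 (15993380 to 15993468) lay inside it, at 8%, 39.6% and 40.5% of its length. All 4 overlapped the noncoding gene lncRNA:CR44133, and counts do not tell which gene a region serves. The nearest srp regions of the 2 tables were 11539 bp apart. Both GATAe regions lay inside GATAe, GATAe-F1 at 16011796 to 16011913 and GATAe-F2 at 16012310 to 16012432, at 27.4% and 32.6% of its length. pnr had 0 regions in either table.

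The ush gene is far longer, at 64341 bp (2L, 476220 to 540560), and its regions clustered near the lower end. Of 8 ush regions in both tables, 7 lay within 5594 bp. This cluster sits at another gene: cbt, which encodes the sugar-responsive zinc-finger factor Cabut, lies wholly inside the ush span (476446 to 479688). ush-G1 (479221 to 479328) lay inside cbt, and ush-G2 (479612 to 479915) crossed its upper end by 77 bp. ush-F1 (479740 to 479809) lay 52 bp and ush-F2 (480234 to 480347) 546 bp beyond cbt. ush-G3 (480776 to 481114), ush-G4 (481249 to 481380) and ush-F3 (484736 to 484814) lay 1088, 1561 and 5048 bp beyond it. Only ush-G5 (523430 to 523723) lay in the upper part of ush, at 73.6% of its length. Values of the regions at cbt cannot be told apart between the 2 genes. ush-F1 fell wholly within ush-G2, by 70 bp, and was the only member region seen in both tables, 1 of 7 in the fat body table and 1 of 9 in the gut table. Over chromosome arms, 20.3% and 17.4% of the regions of these tables overlapped the other table. Ptx1 spans 30912754 to 30930682 on 3R, and Ptx1-F1 (30912622 to 30912738) lay 16 bp outside its lower end. The annotation used gives gene spans without strands or exons, so neither start sites nor introns were told.

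**Figure D1:**
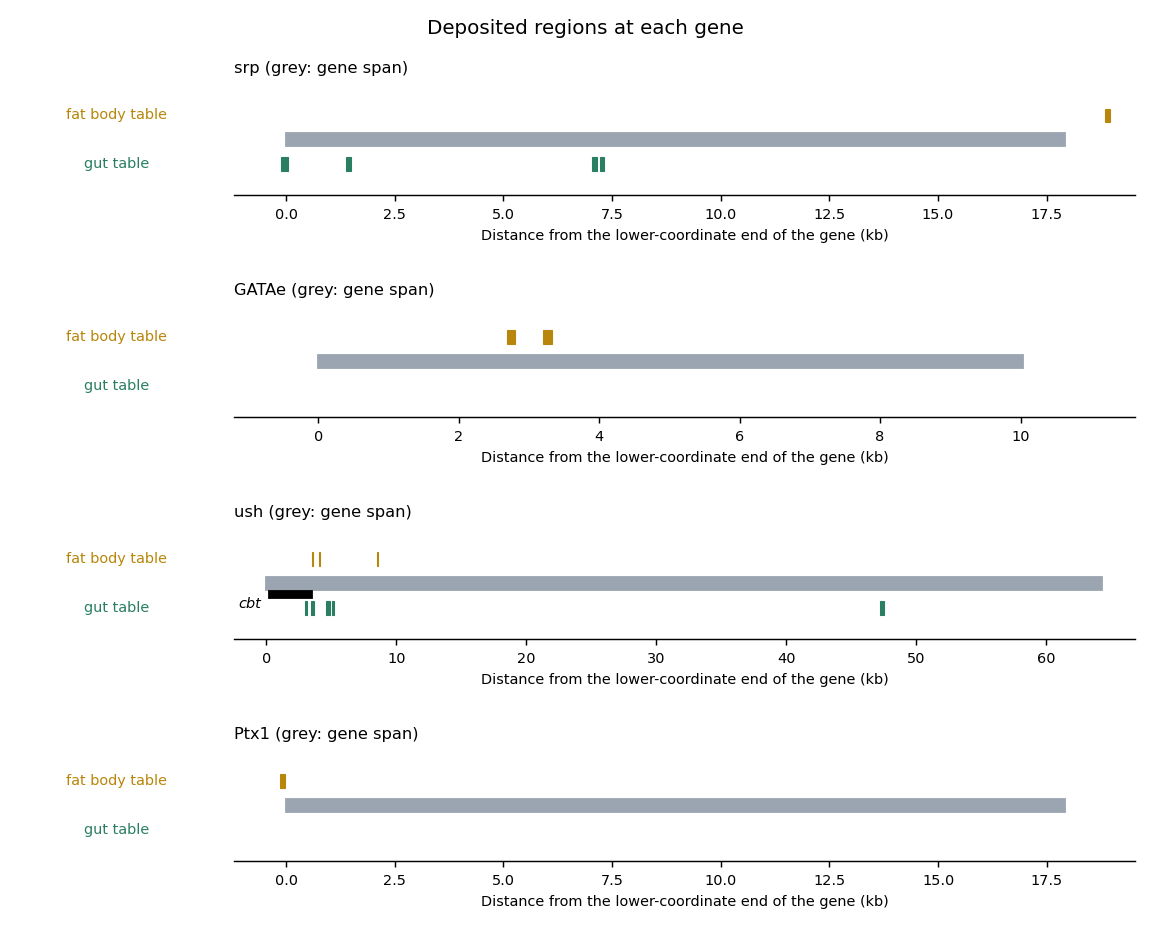
Deposited regions along srp, GATAe, ush and Ptx1, with the distance from the lower-coordinate end of each gene in kb on the x axis. Grey bars are gene spans, the black bar is cbt, and coloured boxes are regions of the fat body table (above) and labelled gut (below), widened slightly by their outline. GATAe and Ptx1 have no box in the lower row, and 7 of the 8 ush regions sit near the lower end, where cbt lies.

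Setting switched against control flies addresses whether chromatin at these genes still differed 7 days after foxo induction had stopped. No member region passed the test in either tissue. edgeR's quasi-likelihood test at a Benjamini-Hochberg adjusted p under 0.05 called 0 of 1674 tested regions labelled fat body (0%) and 0 of 1944 labelled gut (0%), with 80 (4.78%) and 31 (1.59%) at an unadjusted p under 0.05. Of the members, 0 of 7 labelled fat body and 1 of 9 labelled gut, srp-G4, had an unadjusted p under 0.05. DESeq2 called 79 regions labelled fat body and 0 labelled gut, none of them a member. The unadjusted counts rose whichever single library was left out. More regions were then tested, 1808 to 1898 labelled fat body and 2117 to 2237 labelled gut. Labelled fat body the unadjusted counts were 115, 124 and 135 without switched replicate 1, 2 or 3. They were 163, 153 and 163 without control replicate 1, 2 or 3. Labelled gut they were 84, 161 and 94 without switched replicate 1, 2 or 3. They were 62, 77 and 39 without control replicate 1, 2 or 3.

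All 16 member regions passed the filter on low counts. Of the 7 labelled fat body, 4 had a log2 fold change above 0 and 3 below, with a median of 0.30 beside 0.25 over all tested regions. Of the 9 labelled gut, 6 were above 0 and 3 below, with a median of 0.21 beside -0.23 over all tested regions. All switched libraries lay above all control libraries at 0 of the 7 members labelled fat body and below them at 0, beside 10.7% and 5.5% of the 1674 tested regions. Replicates varied widely. The median coefficient of variation within groups was 0.760 for members and 0.795 for all tested regions labelled fat body, and 0.766 and 0.863 labelled gut.

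Among the GATA factors, srp-F1 had the largest difference in the libraries labelled fat body. It had 33.6, 298.3 and 185.3 CPM in switched replicates 1 to 3, against 84.1, 0 and 8.09 CPM in control replicates 1 to 3. Switched replicates 2 and 3 were above every control library, and switched replicate 1 lay below control replicate 1, so the groups overlapped. The region averaged 172.4 ± 132.8 CPM in switched and 30.7 ± 46.4 CPM in control flies (SD, n = 3). Its log2 fold change was 2.49 ± 1.61 (SE, 95% interval -1.12 to 6.09), with an edgeR adjusted p of 0.984. Without control replicate 1 the log2 fold change was 5.34, the highest of the 6 values that leave out 1 library, and the lowest was 1.86.

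The midgut gene GATAe showed no common direction at its 2 regions. GATAe-F1 had 147.9, 58.8 and 187.7 CPM in switched libraries, against 77.7, 0 and 133 CPM in control libraries. Control replicate 2 lacked reads, and the remaining libraries of both groups overlapped. The log2 fold change of GATAe-F1 was 0.90 ± 1.45 (SE, 95% interval -2.33 to 4.14; edgeR adjusted p = 0.984). It was 0.34 without control replicate 2 and 1.83 without control replicate 3. GATAe-F2, only 396 bp further along the gene, had 100.8, 88.2 and 55.8 CPM in switched libraries, against 144, 36.4 and 184.2 CPM in control libraries. Control replicate 2 was again the lowest and control replicate 3 the highest, with all switched libraries in between. Its log2 fold change was -0.58 ± 0.95 (SE, 95% interval -2.70 to 1.55; edgeR adjusted p = 0.984). With both regions summed, GATAe had 311, 135 and 314 counts in switched and 174, 29 and 353 in control libraries, a log2 fold change of -0.08 ± 0.81 (SE, edgeR adjusted p = 0.988) that turned to 0.02 with DESeq2 size factors.

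Some marker lists separated the groups in the libraries labelled fat body. The share of chromosome-arm counts was higher in all 3 switched than in all 3 control libraries at gut markers (0.0889% to 0.213% against 0.0359% to 0.0710%), haemocyte markers (0.0378% to 0.0653% against 0% to 0.0103%), muscle markers (0.161% to 0.257% against 0.0263% to 0.0949%) and ovary markers (0.107% to 0.151% against 0.00124% to 0.0244%). Fat body markers overlapped between the groups (0.0577% to 0.204% against 0.0162% to 0.167%). These gut markers rest on 3 of 8 genes, and betaTry, Mal-A1, mex1, Vha100-4 and CG5150 had no region. The haemocyte, muscle and ovary lists rest on 1 gene each, eater, sls and zpg. The GATA factor gene grn separated the other way (0.0229% to 0.138% in switched against 0.140% to 0.178% in control libraries). In CPM, all switched libraries lay above all control libraries at 10.7% of the 1674 tested regions. Such a share was not computed for gene lists. The mitochondrial share was 75.8% to 83.6% in switched and 84.4% to 88.6% in control libraries. Their part in the values of srp-F1 and GATAe was not tested.

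In the libraries labelled gut, srp-G4 had the largest log2 difference between the groups of the 9 members. It had 0, 6.22 and 0 CPM in switched replicates 1 to 3, against 69.2, 34.4 and 107.6 CPM in control replicates 1 to 3, from 0, 4 and 0 counts in switched and 12, 17 and 43 counts in control libraries. All switched libraries lay below all control libraries. That was so for 7.15% of the 1944 tested regions. The log2 fold change was -4.64 ± 2.12 (SE, 95% interval -9.05 to -0.23). Its unadjusted p was 0.0402, rank 27 of 1944, and the edgeR adjusted p was 0.9999, so the difference did not pass. DESeq2 gave an adjusted p of 0.519, the lowest of all alternatives, and the highest was near 1. The groups stayed apart when counts were divided by chromosome-arm counts or by all counts.

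The other srp regions labelled gut behaved differently. srp-G3, only 70 bp before srp-G4, had 0, 68.4 and 35.6 CPM in switched libraries, against 0, 32.4 and 47.6 CPM in control libraries. Both libraries numbered 1 lacked reads there, and the other 4 overlapped. srp-G2 had 0, 157.1 and 13.7 CPM in switched libraries, against 0, 56.7 and 45 CPM in control libraries, with switched replicate 2 alone above the rest. srp-G1, at the end of the gene, had 0, 70 and 0 CPM in switched libraries, against 0, 42.5 and 105.1 CPM in control libraries. The log2 fold changes of srp-G1, srp-G2 and srp-G3 were -1.03 ± 2.04, 0.74 ± 1.90 and 0.38 ± 1.89 (SE), each with an edgeR adjusted p of 0.9999. None of the 4 srp regions had reads in all 6 libraries. Summed, they had 0, 194 and 18 counts in switched and 12, 82 and 122 in control libraries, a log2 fold change of -0.57 ± 1.16 (SE, 95% interval -3.03 to 1.90; edgeR adjusted p = 0.9999). This value was -1.90 with the replicate block, -2.73 without switched replicate 2 and -0.026 without control replicate 3.

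Fat body markers, summed, had a lower share in switched than in control libraries labelled gut. Of the srp regions there, srp-G1 and srp-G4 had log2 fold changes below 0, and srp-G2 and srp-G3 above 0. The markers held 0.405% to 0.576% of chromosome-arm counts in switched and 0.598% to 0.714% in control libraries labelled gut, with no overlap. This list rested on Lsp1beta, Yp1, Yp3 and apolpp, summed, while Lsp2, Fbp1, Fbp2 and Yp2 had no region. In CPM, all switched libraries lay below all control libraries at 7.15% of the 1944 tested regions. The median log2 fold change over those regions was -0.23. Such a share was not computed for gene lists. The part of this list in the srp values was not tested.

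The cofactor gene ush was covered most evenly in the gut libraries, where each of its 5 regions had reads in all 6 libraries. That was so for 30.5% of all tested regions labelled gut. Across its regions ush had 46, 521 and 224 counts in switched libraries, against 40, 312 and 280 counts in control libraries. As a share of chromosome-arm counts this was 0.291%, 0.394% and 0.334% in switched and 0.169%, 0.328% and 0.255% in control libraries, and the groups overlapped between switched replicate 1 and control replicate 2. On this scale the switched share was the higher one in all 3 pairs of libraries of the same number. Over all counts, pair 3 went the other way, with 224 of 577977 counts in switched and 280 of 519099 in control replicate 3. The pairing of numbers 2 and 3 is itself weakly based. How often other genes were higher in all 3 pairs was not counted, and pair 1 rests on 46 against 40 counts. The log2 fold change of the sum was 0.19 ± 0.64 (SE, 95% interval -1.17 to 1.55; edgeR adjusted p = 0.9999). With the replicate block it was 0.20, with an edgeR adjusted p of 0.993. The interval holds both a 2-fold increase and a 2-fold decrease.

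On the log2 scale, the largest difference within ush labelled gut was at ush-G5, the region far from cbt. It had 63.7, 73.1 and 54.8 CPM in switched replicates 1 to 3, against 5.76, 50.6 and 15.0 CPM in control replicates 1 to 3. All switched libraries were above all control libraries, as in 3.65% of the tested regions labelled gut. The counts were 11, 47 and 20 in switched and 1, 25 and 6 in control libraries. The region averaged 63.8 ± 9.15 CPM in switched and 23.8 ± 23.7 CPM in control flies (SD, n = 3), a log2 fold change of 1.38 ± 1.74 (SE, 95% interval -2.23 to 5.00) with an edgeR adjusted p of 0.9999. The groups stayed apart as shares of chromosome-arm counts and overlapped as CPM computed from all counts without TMM factors, where switched replicate 3 had 34.6 and control replicate 2 had 38.2.

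At the 4 ush regions nearer to cbt the groups labelled gut overlapped in CPM. ush-G3, the longest of them, had 92.6, 328.1 and 189 CPM in switched libraries, against 121, 275.4 and 375.4 CPM in control libraries. ush-G4 had 86.8, 160.2 and 126 CPM in switched libraries, against 23.1, 89.1 and 142.7 CPM in control libraries. As shares of chromosome-arm counts, ush-G4 was higher in all switched than in all control libraries. It overlapped as CPM computed from all counts, and control replicate 1 had only 4 counts there. The share of all regions apart on the chromosome-arm scale was not computed. ush-G1, inside cbt, had 5.79, 115.1 and 57.5 CPM in switched libraries, against 17.3, 83.0 and 72.6 CPM in control libraries. ush-G2, across the end of cbt, had 17.4, 133.7 and 186.2 CPM in switched libraries, against 63.4, 133.7 and 95.1 CPM in control libraries. A library numbered 1 was the lowest at each of these regions. The log2 fold changes of ush-G1 to ush-G4 were 0.05 ± 1.59, 0.21 ± 1.22, -0.34 ± 0.94 and 0.54 ± 1.20 (SE), each with an edgeR adjusted p of 0.9999. The signs of ush-G1, ush-G2 and ush-G3 turned when single libraries were left out.

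**Figure D2:**
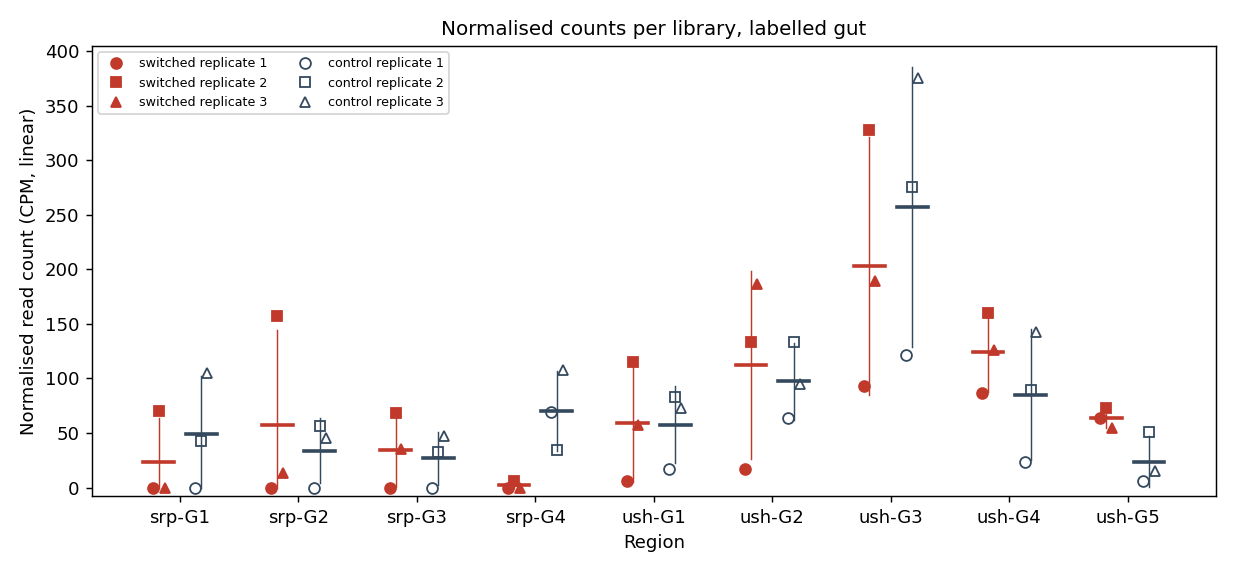
Normalised read counts (CPM, linear axis) at the 9 member regions labelled gut, with switched libraries (filled) left of control libraries (open). Symbols mark the replicate number, thick bars the mean and thin bars 1 SD, drawn no lower than 0. At srp-G4 the 3 switched libraries lie at 0 to 6.22 CPM below all control libraries, and at ush-G5 they lie at 54.8 to 73.1 CPM above all control libraries.

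In the libraries labelled fat body, ush was read at fewer and shorter regions. Its 3 regions were 70 to 114 bp long, against 108 to 339 bp labelled gut. ush-F1, which lies within ush-G2, had 20, 14.2 and 98.5 CPM in switched libraries, against 63.7, 6.28 and 0 CPM in control libraries. ush-F2 had 20.0, 44.6 and 217.9 CPM in switched libraries, against 209, 150.7 and 20.7 CPM in control libraries. Switched replicate 3 was the highest library at both regions, and control replicate 3 was at 0 or close to the lowest. ush-F3 had 139.1, 23.9 and 99.3 CPM in switched libraries, against 1.27, 108 and 104.2 CPM in control libraries. The groups overlapped at all 3. Log2 fold changes of ush-F1, ush-F2 and ush-F3 were 0.92 ± 1.88, -0.43 ± 1.18 and 0.30 ± 1.38 (SE), with edgeR adjusted p-values of 0.984, 0.984 and 0.986. Summed over its regions ush had 224, 76 and 536 counts in switched and 215, 211 and 139 in control libraries, a log2 fold change of -0.23 ± 0.74 (SE, edgeR adjusted p = 0.939). Each of these 4 signs turned without 1 or more single libraries, and ush-F2 was at 0.64 with library totals alone.

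Ptx1-F1, next to the end of the midgut gene Ptx1, had 72, 14.2 and 31.8 CPM in switched libraries labelled fat body, against 131.3, 49.0 and 169.8 CPM in control libraries. Switched replicates 2 and 3 were below every control library, while switched replicate 1 exceeded control replicate 2. The region averaged 39.3 ± 29.6 CPM in switched and 116.7 ± 61.7 CPM in control flies (SD, n = 3). Its log2 fold change was -1.57 ± 1.10 (SE, 95% interval -4.02 to 0.89), with an edgeR adjusted p of 0.984. The sign held when any single library was left out (-2.33 to -1.16).

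**Figure D3:**
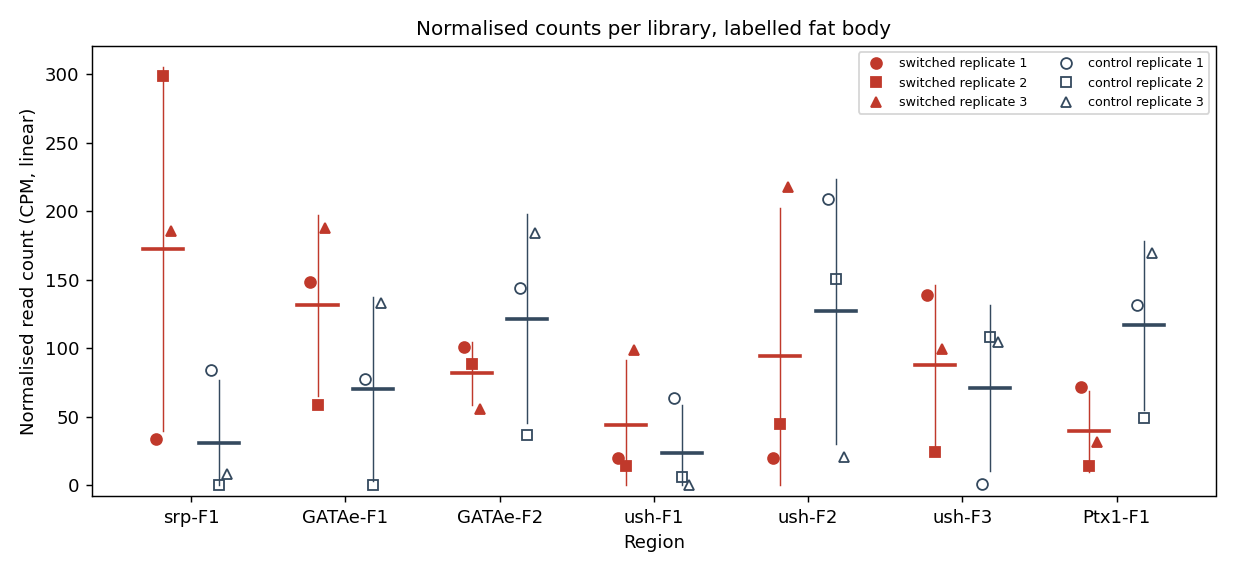
Normalised read counts (CPM, linear axis) at the 7 member regions labelled fat body, with switched libraries (filled) left of control libraries (open). Symbols mark the replicate number, thick bars the mean and thin bars 1 SD, drawn no lower than 0. At srp-F1 switched replicates 2 and 3 stand at 298.3 and 185.3 CPM, and at every region the groups overlap.

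Levels were also compared per length, as mean CPM per 100 bp. In switched libraries labelled fat body this level was 165.8 at srp-F1 and 33.6 at Ptx1-F1, with 63.2 to 111.4 at the other 5 regions. In control libraries it was 29.6 at srp-F1 and 33.3 at ush-F1, with 59.5 to 111.2 at the other 5. Labelled gut, srp-G4 had 2.33 CPM per 100 bp in switched and 79.1 in control libraries, ush-G3 had 60.0 in switched and 75.9 in control libraries, and ush-G4 had 94.2 in switched and 64.3 in control libraries. The median coefficient of variation of members was 0.760 labelled fat body and 0.766 labelled gut, so these orders do not rank neighbours beyond their spread.

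**Figure D4:**
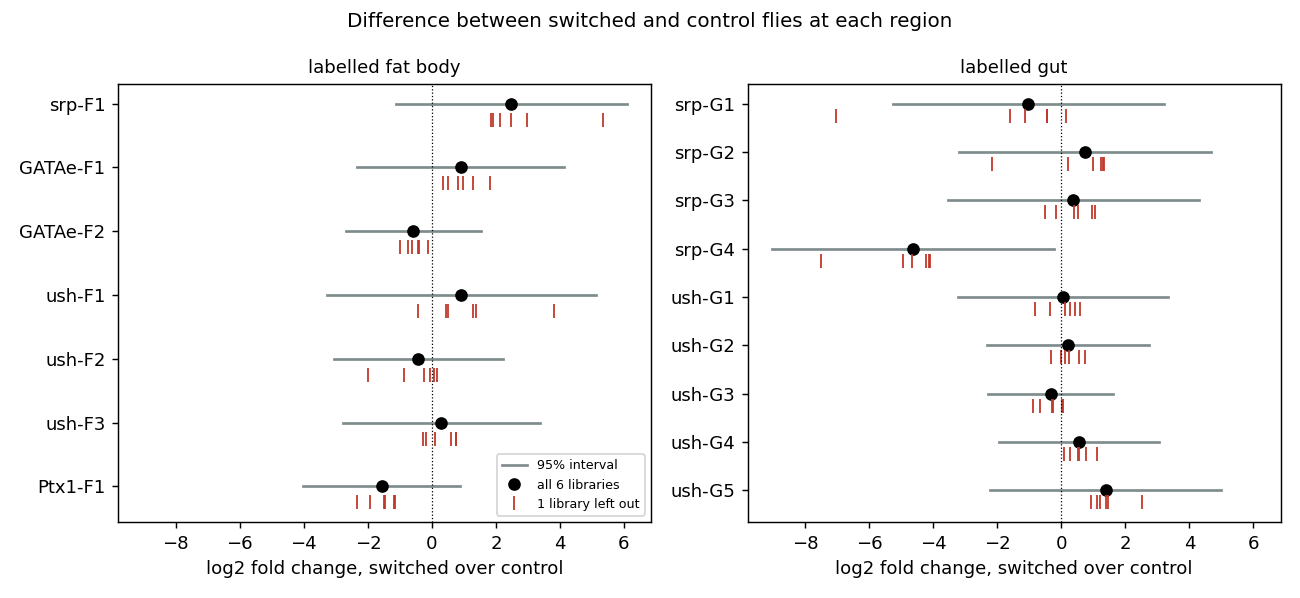
Log2 fold change of switched over control flies at each member region, with the 95% interval (grey line) from edgeR's fit over all tested regions. Red ticks are the 6 values that leave out 1 library. All intervals labelled fat body cross 0. Labelled gut, the interval of srp-G4 alone stays below 0, from -9.05 to -0.23, before adjustment for the 1944 regions tested.

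Other regulators of GATA, midgut, blood and fat body programmes were read from a list. Of 22 listed genes, 1 (Dl) was not matched to the annotation and could not be looked up, and 6 had a region in each table. The share was 9.04% (fat body table) and 16.3% (gut table) of all protein-coding genes on chromosome arms. Among those of at least 10000 bp it was 26.1% and 33.7%. The lengths of the listed genes were not compared, so these shares do not tell whether the list was enriched. The same listed gene failed the filter in both, with 0 to 4 counts per library. The other 5 in each passed, with 0 called in either. Labelled fat body 3 were above 0 and 2 below, with a median log2 fold change of 0.27 beside 0.39 over 1121 genes. Labelled gut 1 was above 0 and 4 below, with a median of -0.42 beside -0.18 over 1924 genes. The GATA factor gene grn had a log2 fold change of -1.04 ± 0.91 (SE) labelled fat body, and GATAd, another GATA factor gene, -0.42 ± 1.57 labelled gut. The homeobox gene hth, a partner of Hox factors, was at -0.34 ± 0.93 labelled fat body and -0.66 ± 1.32 labelled gut. Among regulators of blood and fat body, zfh1, a zinc-finger homeodomain factor gene, was at 3.12 ± 2.04 labelled fat body and 1.01 ± 0.75 labelled gut. The Runx factor gene lz was at 1.37 ± 1.76 labelled fat body, and the nuclear receptor gene svp at 0.27 ± 1.90 labelled fat body and -0.04 ± 0.64 labelled gut. Hnf4, a nuclear receptor gene of fat metabolism, was at -0.52 ± 0.67 labelled gut. The edgeR adjusted p-values of these genes were at least 0.919.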

How the data were processed

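ATAC-seq reads were counted per region. The authors deposited raw read counts in 1 table per tissue, called read counts in the deposited sheet key. The submitters' processing notes name FastQC, Trimmomatic, MACS2 and featureCounts, and DESeq2 beside them. Their versions and roles, the aligner, the build, duplicate removal, Tn5 shifting and pooling of peak calls are not given. Duplicates left in would widen the spread between libraries.

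Samples were grouped by title. Replicates differed beyond counting noise (chi-square per degree of freedom at least 20.2), so none was merged. Coordinates are the deposited ones. They were matched to Release 6 gene spans (RefSeq), since 44.7% of gut regions on chromosome arms had their midpoint within 500 bp of a gene end, against 18.9% to 21.7% after shifts of 5000 or 10000 bp. For the table labelled fat body that share was 14%, against 12.5% to 13% after shifts, so gene ends hardly tell the build there. Of its regions on chromosome arms, 20.3% overlapped the gut table. This overlap was not computed after shifts, so it does not tell the build either. For the fat body table the build was therefore assumed. Whole tables were fitted in R 4.3.3 with edgeR 4.0.16 (filterByExpr, minimum count 10 and minimum total 15, TMM, quasi-likelihood F test, common dispersions 1.40 and 1.38). The standard error was the log2 fold change over the square root of F. Counts were also summed per protein-coding gene over regions within 1000 bp, without mitochondrial genes. DESeq2 1.42.0 was an alternative, and the code was tested on simulated data.

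The members, lists and tests were chosen with earlier results of these data known. Named genes were the 4 members and those of 22 listed regulators that passed the filter; Dl was not matched. Replicate numbers labelled gut were taken to pair samples, because same-numbered libraries deviated from their group means together (r = 0.259, 0.191 and 0.108, over 1944 regions). However, control replicate 3 with switched replicate 2 gave 0.109, and control replicate 2 with switched replicate 3 gave 0.0972. The pairing of numbers 2 and 3 is therefore weakly based. The main fits used no replicate block, which was run only as an alternative. What a shared number stands for is not in the labels, and both libraries numbered 1 were shallow. Labelled fat body the values were 0.00431, -0.0253 and -0.0602, and the numbers were not taken to pair samples.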

Additional observations from a re-analysis of the deposited data

How the results depend on the processing

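No member region or gene sum passed the test under any alternative run. Over 16 regions and 6 gene sums, 273 alternative log2 fold changes were computed, of which 244 kept the sign and 29 turned it, with adjusted p-values from 0.338 up. The signs of 7 regions (srp-F1, GATAe-F1, GATAe-F2, Ptx1-F1, srp-G4, ush-G4 and ush-G5) held under every alternative. Library totals alone moved the median over all tested regions labelled fat body to 0.94 from 0.25, put ush-F2 at 0.64 and put ush-G2 at -0.015. The sum of GATAe turned to 0.016 with DESeq2 size factors, to 0.010 without a filter on low counts, to 0.021 with DESeq2 and to 0.34 with the replicate block. The replicate block gave -0.061 at srp-G2, -0.34 at ush-G1 and -0.19 at ush-G2, and it changed no call. Leaving out 1 library gave ranges that cross 0: -0.44 to 3.82 at ush-F1, -1.99 to 0.16 at ush-F2, -0.27 to 0.76 at ush-F3, -0.48 to 0.55 for the GATAe sum and -0.83 to 0.24 for the ush sum labelled fat body, and, labelled gut, -7.03 to 0.13 at srp-G1, -2.16 to 1.32 at srp-G2, -0.52 to 1.05 at srp-G3, -0.82 to 0.59 at ush-G1, -0.32 to 0.73 at ush-G2, -0.89 to 0.060 at ush-G3 and -0.11 to 0.45 for the ush sum. Over whole tables, DESeq2 called 79 regions and 41 gene sums labelled fat body and 5 gene sums labelled gut, and edgeR without a filter called 19 regions labelled fat body. Counted by overlap with the gene alone, srp and Ptx1 had 0 regions in the fat body table. With reads in all 6 libraries, srp had 0 regions in either table and GATAe had 1. Gene sums held no mitochondrial genes, so leaving those out was not run for them. The cause of these changes was not tested. Both gut libraries numbered 1 were shallow, and a region at 0 there can hide up to 17.4 CPM.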
